A study of Mus musculus with 4 samples.

Results

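The collagen genes were taken as every symbol made of Col, a number, the letter a and a number in the raw count tables of 4 mouse B16 melanoma tumor libraries. This gave 44 of 25239 gene symbols. Of these 44, 27 averaged 10 or more raw reads per library and are described one by one. The same minimum was passed by 13357 of all genes. B16 is a transplantable mouse melanoma line, which was grown under the skin of B6 mice on both flanks. All 4 groups received CTX, an agent that the labels do not spell out, and treatment was given on day 7. The tumor pieces date from 12 days after ACT, which is likewise left unexpanded. No source used here gives the age or sex of the mice.

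The library called CTX here came from mice given CTX and, per its labels, PBS injected into the left tumor, without T cells or virus. What is called the MV left tumor was taken from left tumors injected with free MV, and their mice also had TRP-1 T cells by vein. The remote tumor library came from the right tumors of that treatment group, which were not injected. The TRP-1MV library came from mice given TRP-1MV cells by vein, spelled TRP-1 TMV in the protocol. The protocol also describes mice with T cells but no virus, which were not analysed here. The labels state n = 2, but each group had 1 table with 1 column, so no replicate spread could be measured and there is no test between groups. Whether mice were pooled is not stated. The source field names a melanoma cell line, and the extraction protocol names tumor tissue.

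Collagens are secreted proteins whose chains wind into a triple helix, in which glycine recurs at a fixed spacing, written Gly-X-Y. Fibrillar collagens have a long unbroken helix and assemble into the fibrils that give skin and tumor stroma their tensile strength. Collagen IV has an interrupted helix and forms the sheet of basement membranes, the layer under epithelia and around blood vessels. Other classes bind to fibrils (FACIT collagens), form beaded filaments (collagen VI), carry glycan chains in basement membrane zones (the multiplexins Col15a1 and Col18a1), anchor the epidermis (Col7a1) or span the cell membrane.

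The libraries held between 12375526 and 21790759 counted reads. All collagen genes together took 3791 reads in the MV left tumor, 4524 in TRP-1MV, 7906 in the remote tumor and 7850 in CTX. This was 0.0306% of the reads in the first and in the second of these libraries, 0.0363% in the remote tumor and 0.0377% in CTX. The 95% Clopper-Pearson interval was 0.0297% to 0.0316% for the MV left tumor and 0.0369% to 0.0386% in CTX. The melanocyte markers set for a check of the labelled tissue were all present in every library. Their summed level was 5794 CPM in the MV left tumor, 5424 in TRP-1MV, 25430.2 in the remote tumor and 24989.5 in CTX. Levels are CPM, counts scaled to a common library size with TMM factors, which rest on genes that differ little between libraries. Ratios are log2 ratios of these levels, with a 95% interval in brackets that covers counting error only and not the variation between mice or library preparations. A gene was called higher or lower where the ratio was at least 2-fold and the interval excluded equality. In tumor pieces, fewer cells of a type and less RNA per cell cannot be told apart.

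Coding sequences differ between the classes, and the stretches below are shown because they carry the feature that separates fibrillar collagens from collagen IV. In the GENCODE M21 transcripts, the longest unbroken run of Gly-X-Y codon triplets was 216 to 344 triplets in the 11 fibrillar genes. In the 6 collagen IV genes it was 39 to 66 triplets, with 23 to 27 separate runs of 3 or more triplets each. The multiplexins Col15a1 and Col18a1 had a longest run of 30 triplets, in 13 and 17 runs. Each stretch below has 72 coding bases, 5′ to 3′, with the GG of the glycine codons that belong to a run in capitals. Those of Col1a1 (codons 168 to 191) and Col5a3 (codons 478 to 501) open the longest run of the gene. Those of Col4a1 (codons 151 to 174) and Col4a2 (codons 963 to 986) show the last 4 triplets of the longest run and the interruption after it.
Col1a1: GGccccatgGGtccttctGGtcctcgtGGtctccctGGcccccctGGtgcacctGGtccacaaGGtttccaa
Col5a3: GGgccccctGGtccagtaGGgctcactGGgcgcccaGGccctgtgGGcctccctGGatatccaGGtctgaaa
Col4a1: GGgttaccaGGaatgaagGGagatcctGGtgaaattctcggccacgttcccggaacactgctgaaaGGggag
Col4a2: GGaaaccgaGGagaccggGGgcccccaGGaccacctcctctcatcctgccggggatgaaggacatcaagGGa
The capitals recur every 9 bases throughout Col1a1 and Col5a3. In the stretches of Col4a1 and Col4a2 they stop partway and resume near the end, where the next run begins.

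**Figure D1:**
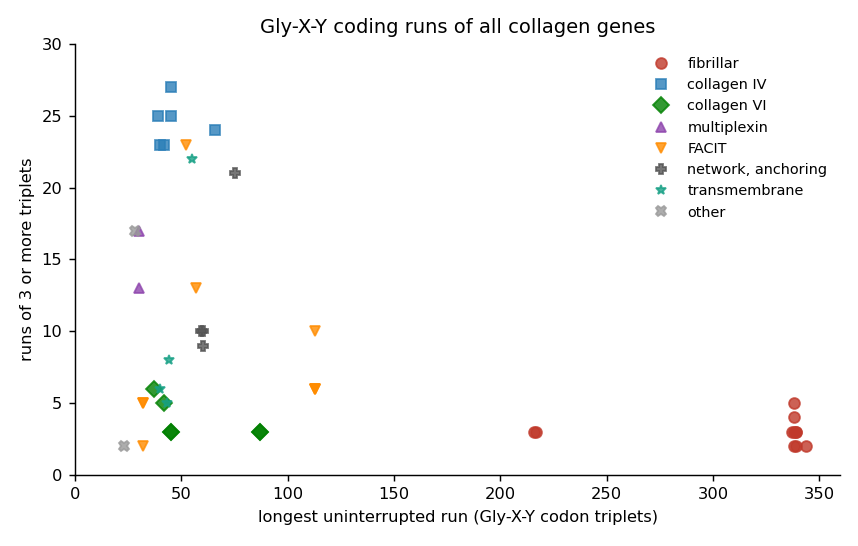
Longest uninterrupted run of Gly-X-Y codon triplets (x axis) against the number of runs of 3 or more triplets (y axis) for the 44 collagen genes, 1 point per gene, coloured by class. The fibrillar genes lie at 216 to 344 triplets with 2 to 5 runs, and the collagen IV genes at 39 to 66 triplets with 23 to 27 runs.

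Per kilobase of mRNA, averaged over the 4 libraries, Col16a1 stood highest at 8.97 CPM per kb. Col16a1 encodes a FACIT collagen found near basement membranes and fibrils. It was followed by Col4a1 at 5.78, Col5a1 at 5.50, Col4a2 at 4.74, Col15a1 at 4.69, Col5a3 at 4.47 and Col1a1 at 3.04 CPM per kb. The other 20 described genes were lower, down to Col14a1 at 0.114 CPM per kb. Col1a1 and Col3a1, the main fibrillar genes of skin stroma, were thus not the leading collagen genes in these libraries. Within the separate libraries Col16a1 was highest per kilobase in each, at 6.45 CPM per kb in the MV left tumor, 6.17 in TRP-1MV, 11.4 in the remote tumor and 11.9 in CTX. Col5a1 was close behind it in the MV left tumor at 5.94 and in TRP-1MV at 6.12, whereas Col15a1 at 8.09 in the remote tumor and Col4a1 at 8.21 in CTX came next there.

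**Figure D2:**
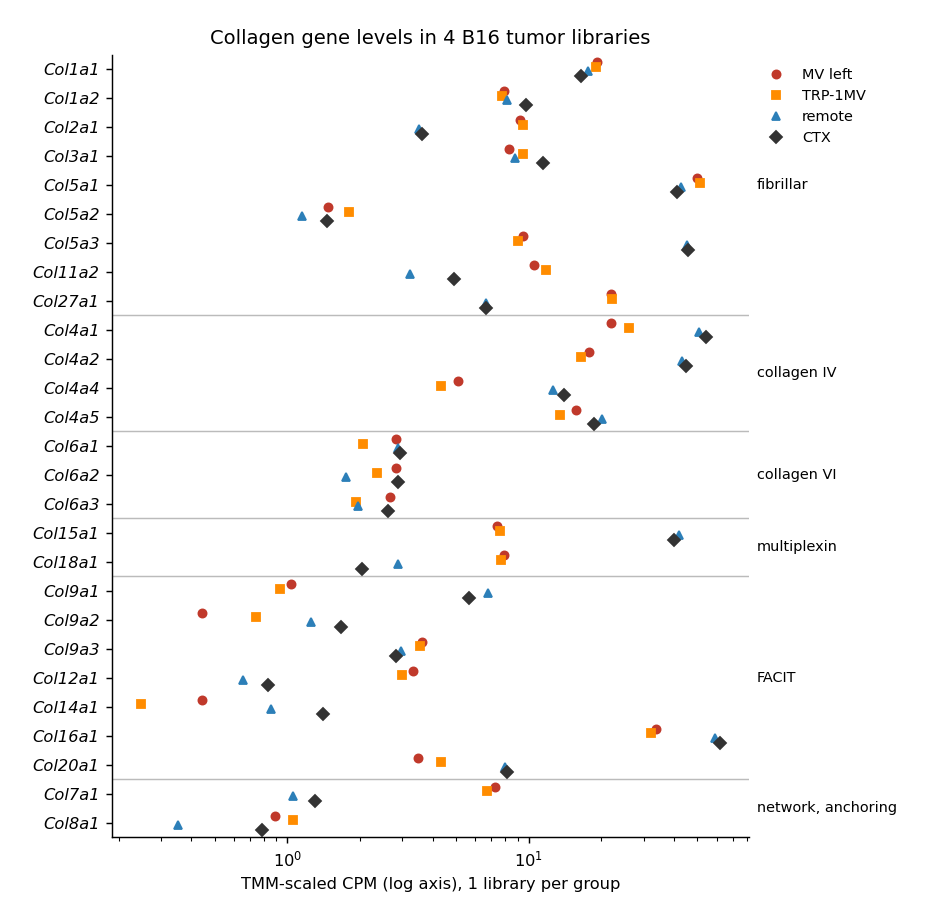
Level of each of the 27 collagen genes past the minimum count in TMM-scaled CPM (log axis), 1 point per library, grouped by class. Points of the MV left tumor and TRP-1MV lie close together, as do those of the remote tumor and CTX, and the pairs lie apart for Col5a3, Col15a1, Col7a1 and Col27a1.

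Against CTX, 6 of the 27 genes were higher and 9 were lower in the MV left tumor, beside 18.1% higher and 11.1% lower, 29.2% in all, among all 13357 genes. The shares of the collagen genes were 22.2% higher and 33.3% lower. The higher genes were Col7a1, Col12a1, Col18a1, Col27a1, Col2a1 and Col11a2, and the lower genes were Col15a1, Col9a1, Col5a3, Col9a2, Col14a1, Col4a4, Col4a2, Col4a1 and Col20a1. In TRP-1MV against CTX, 6 were higher and 8 were lower, beside 18.5% and 11.7% of all genes, 30.2% together. These were the genes just named except Col20a1, which stood at a log2 ratio of -0.90 there. The median log2 ratio of the 27 genes was -0.05 in the MV left tumor and -0.32 in TRP-1MV, beside -0.05 and -0.07 over all genes compared. Both comparisons use the same CTX library. Scaling on 19 housekeeping genes adds 0.37 to every log2 ratio of the MV left tumor against CTX and 0.39 to those of TRP-1MV. With it, 6 collagen genes were higher and 5 lower in the MV left tumor, and 6 higher and 6 lower in TRP-1MV. Scaling on total counts gave 6 higher and 8 lower in the MV left tumor, with 6 higher and 6 lower in TRP-1MV. Among all genes called in the MV left tumor, the share that was higher went from 61.8% to 83.3% with housekeeping scaling and to 76.9% with total counts.

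**Figure D3:**
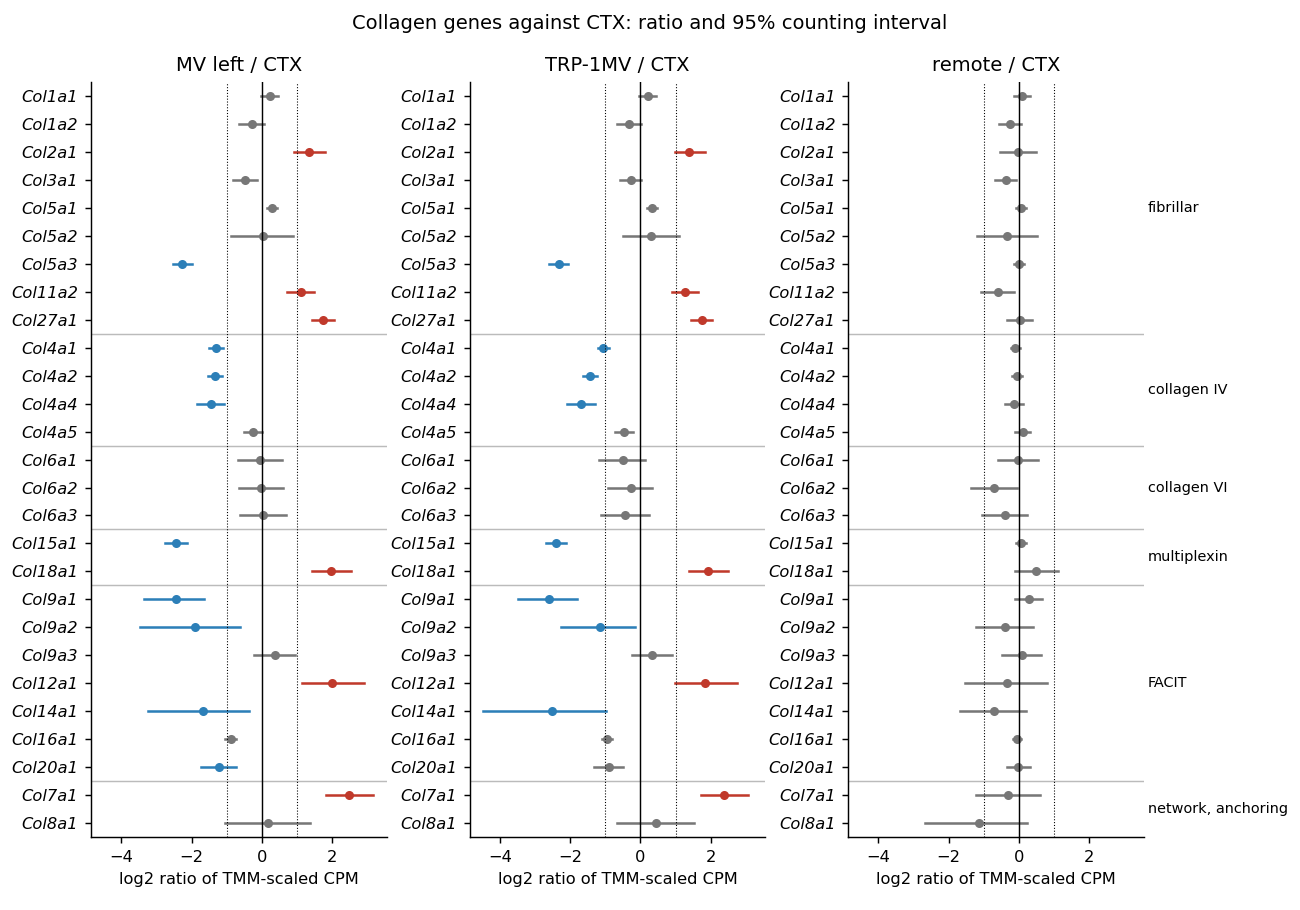
Log2 ratio of TMM-scaled CPM against CTX for the 27 collagen genes (points) with 95% counting intervals (lines), in 3 panels for the MV left tumor, TRP-1MV and the remote tumor. Red marks genes called higher, blue genes called lower and grey genes not called, and dotted lines mark a ratio of 2. No gene is coloured in the remote tumor panel.

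The fibrillar collagens split within the class, with 3 of 9 genes higher, 1 lower and 5 not called in both the MV left tumor and TRP-1MV. Among all genes, 18.1% were higher and 11.1% lower in the MV left tumor against CTX, and 18.5% and 11.7% in TRP-1MV. Col5a3, which encodes a less common chain of the fibril-regulating collagen V, stood at 9.47 CPM in the MV left tumor, 9.06 in TRP-1MV, 45.4 in the remote tumor and 45.5 in CTX. It was the only fibrillar gene called lower. Its level was 4.80-fold lower in the MV left tumor than in CTX, a log2 ratio of -2.26 [-2.54, -1.99], and the log2 ratio was -2.33 [-2.59, -2.07] in TRP-1MV. Col5a1, the chain present in nearly all collagen V, stood at 49.9, 51.4, 42.6 and 41.0 CPM in the same order of libraries. Its log2 ratio against CTX was 0.28 [0.13, 0.43] in the MV left tumor, under the 2-fold limit. Within each library, the reads of Col5a3 were 0.190 and 0.176 times those of Col5a1 in the MV left tumor and TRP-1MV, and 1.07 and 1.11 times in the remote tumor and CTX. These read ratios are not corrected for length, but they do not depend on the scaling between libraries. Col5a3 lies at mm10 chromosome 9, 20770050 to 20815067, on the minus strand.

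Col2a1, Col11a2 and Col27a1 were higher, and all 3 are best known from cartilage. Col27a1, at mm10 chromosome 4, 63214004 to 63334991, encodes a fibrillar chain with a shorter helix. It stood at 22.0 CPM in the MV left tumor, 22.1 in TRP-1MV, 6.68 in the remote tumor and 6.62 in CTX. Its level was 3.32-fold higher in the MV left tumor than in CTX, a log2 ratio of 1.73 [1.43, 2.04]. Col2a1, the main cartilage fibril gene, had 9.18, 9.44, 3.52 and 3.60 CPM in the same order, and a log2 ratio of 1.35 [0.91, 1.80] in the MV left tumor. Col11a2, a chain of the cartilage collagen XI, had 10.5, 11.8, 3.22 and 4.90 CPM, and a log2 ratio of 1.10 [0.71, 1.49]. In TRP-1MV the log2 ratios of Col27a1, Col2a1 and Col11a2 were 1.74 [1.44, 2.04], 1.39 [0.97, 1.82] and 1.27 [0.90, 1.64]. For all 3 genes both of these libraries lay above the remote tumor and CTX. Of 7 chondrocyte markers, 3 passed the minimum and none was higher. Matn3 was lower in TRP-1MV than in CTX, at -1.54 [-2.48, -0.69] on 15 and 52 reads. In the MV left tumor it stood at -0.95 and was not called. Acan, which encodes the main cartilage proteoglycan, had 0 reads in all 4 libraries. The summed level of those 7 markers was 17.5 CPM in the MV left tumor, 16.8 in TRP-1MV, 15.4 in the remote tumor and 20.6 in CTX.

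The major stromal fibril genes were not called in any of the 6 comparisons. Col1a1, which encodes the main chain of collagen I (mm10 chromosome 11, 94936224 to 94953042), stood at 19.2 CPM in the MV left tumor, 18.9 in TRP-1MV, 17.5 in the remote tumor and 16.5 in CTX. Col1a2, its partner chain, stood at 7.92, 7.76, 8.14 and 9.70 CPM. The levels of Col3a1, the fibrillar collagen of pliable tissue, were 8.29, 9.44, 8.79 and 11.5 CPM. Its log2 ratio in the MV left tumor against CTX was -0.47 [-0.81, -0.13], which excluded equality but stayed under 2-fold. Those of Col1a1 and Col1a2 were 0.22 and -0.29. Col5a2 had 1.48, 1.80, 1.16 and 1.46 CPM, from 20 to 29 reads. Per length of mRNA, Col1a1 was at 2.19 times the level of Col1a2 in the MV left tumor, 2.20 in TRP-1MV, 1.94 in the remote tumor and 1.53 in CTX. Collagen I is commonly built of 2 chains from Col1a1 and 1 from Col1a2.

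In collagen IV, 3 of the 4 genes past the minimum were lower in both the MV left tumor and TRP-1MV. The shares of all genes that were lower were 11.1% and 11.7%. Col4a1 and Col4a2 encode the chains of the common basement membrane network. Col4a1 stood at 22.0 CPM in the MV left tumor, 26.1 in TRP-1MV, 50.5 in the remote tumor and 54.3 in CTX. It was 2.47-fold lower in the MV left tumor than in CTX, a log2 ratio of -1.30 [-1.50, -1.12], and stood at -1.05 [-1.22, -0.89] in TRP-1MV. Col4a2 stood at 17.8, 16.5, 43.0 and 44.9 CPM, with log2 ratios of -1.33 [-1.55, -1.13] and -1.44 [-1.65, -1.24] against CTX. The levels of both genes were lower in both of these libraries than in the remote tumor and CTX. With housekeeping scaling Col4a1 was at -0.93 in the MV left tumor and -0.67 in TRP-1MV, and Col4a2 at -0.96 in the MV left tumor, all short of the 2-fold limit. With total counts the TRP-1MV ratio of Col4a1 was -0.81, and with upper-quartile factors it was -0.98.

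Col4a4, a chain of the specialised collagen IV network of kidney and some other basement membranes, was lower in both libraries. Its levels were 5.11 CPM in the MV left tumor, 4.35 in TRP-1MV, 12.6 in the remote tumor and 14.0 in CTX. The log2 ratios against CTX were -1.45 [-1.86, -1.07] and -1.69 [-2.09, -1.30]. Col4a5, its partner in that network, was not called and had 15.8, 13.5, 20.1 and 18.7 CPM, with log2 ratios of -0.24 [-0.50, 0.00] and -0.46 [-0.71, -0.22]. Reads of Col4a4 were 0.324 times those of Col4a5 in the MV left tumor, 0.321 in TRP-1MV, 0.628 in the remote tumor and 0.749 in CTX. The remaining members were barely read. Col4a3, which shares the specialised network with both, had 4, 2, 6 and 5 reads, and Col4a6 had 0, 0, 0 and 1.

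The 6 collagen IV genes lie as 3 head-to-head pairs in mm10. Col4a1 (chromosome 8, 11198423 to 11312826, minus strand) and Col4a2 (11312805 to 11449287, plus strand) overlap by 22 bases at their starts. Reads of Col4a1 were 1.23, 1.58, 1.18 and 1.21 times those of Col4a2 in the 4 libraries in the order used above. This pair thus kept a like ratio in the MV left tumor, the remote tumor and CTX, and TRP-1MV stood above them. Col4a4 (chromosome 1, 82448423 to 82586849, minus strand) starts 71 bases from Col4a3 (82586921 to 82722059, plus strand), and the reads of this pair differed more than 10-fold in every library. Col4a6 (chromosome X, 141165403 to 141474076, minus strand) starts 1308 bases from Col4a5 (141475385 to 141689234, plus strand), with 0 or 1 read beside 213 to 400.

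The multiplexins moved in opposite directions. Col15a1 (mm10 chromosome 4, 47208161 to 47313167, plus strand) encodes a proteoglycan collagen of basement membrane zones. It stood at 7.40 CPM in the MV left tumor, 7.57 in TRP-1MV, 41.9 in the remote tumor and 40.2 in CTX. It was 5.43-fold lower in the MV left tumor than in CTX, a log2 ratio of -2.44 [-2.76, -2.14], and stood at -2.41 [-2.69, -2.13] in TRP-1MV. Col18a1 (chromosome 10, 77052178 to 77166548, minus strand), the source of the fragment endostatin, had 7.92, 7.70, 2.86 and 2.03 CPM. It was 3.89-fold higher in the MV left tumor than in CTX, a log2 ratio of 1.96 [1.42, 2.53], and stood at 1.92 [1.39, 2.48] in TRP-1MV. Within libraries, Col15a1 had 0.935 and 0.984 times the reads of Col18a1 in the MV left tumor and TRP-1MV, against 14.6 times in the remote tumor and 19.7 times in CTX.

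Among the FACIT collagens, 1 of 7 was higher and 4 were lower in the MV left tumor, with 1 higher and 3 lower in TRP-1MV. The shares of all genes called higher against CTX were 18.1% for the former library and 18.5% for the latter. Those called lower made up 11.1% and 11.7%. Col12a1, which links fibrils in dense tissue (chromosome 9, 79598991 to 79718831), stood at 3.33 CPM in the MV left tumor, 2.98 in TRP-1MV, 0.653 in the remote tumor and 0.834 in CTX. Its log2 ratios against CTX were 2.00 [1.15, 2.92] and 1.84 [0.99, 2.75]. Col9a1, a chain of the cartilage fibril collagen IX (chromosome 1, 24177610 to 24252684), moved the other way. It had 1.04, 0.931, 6.78 and 5.63 CPM, with log2 ratios of -2.44 [-3.36, -1.63] and -2.60 [-3.48, -1.81]. Its partner chain Col9a2 was lower as well, from 6 and 12 reads against 32 in CTX, with log2 ratios of -1.91 [-3.46, -0.63] and -1.16 [-2.26, -0.17]. The third partner, Col9a3, was not called, at 3.63, 3.54, 2.96 and 2.82 CPM. Of its exon bases, 6.07% overlap the gene Tcfl5 on the opposite strand, and no source used here states the strand setting of the counting. Per length of mRNA, Col9a1 was at 0.227 times Col9a3 in the MV left tumor, 0.209 in TRP-1MV, 1.82 in the remote tumor and 1.59 in CTX. The chains of collagen IX thus did not keep a common ratio across libraries.

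Col14a1, another fibril-binding FACIT collagen, was lower on few reads, with 6 in the MV left tumor, 4 in TRP-1MV, 17 in the remote tumor and 27 in CTX. Its log2 ratios against CTX were -1.66 [-3.23, -0.36] and -2.50 [-4.48, -0.98]. Col20a1, a FACIT collagen that is little studied, had 3.48, 4.35, 7.99 and 8.13 CPM. It was called lower in the MV left tumor, at -1.23 [-1.73, -0.75]. Col16a1 was not called, though it had 33.6, 32.1, 59.2 and 61.9 CPM. Its log2 ratios against CTX were -0.88 [-1.04, -0.72] in the MV left tumor and -0.95 in TRP-1MV, just short of 2-fold. With housekeeping scaling the calls of Col20a1 (-0.85) and Col14a1 (-1.29) in the MV left tumor and of Col9a2 (-0.78) in TRP-1MV ended. With total counts those of Col20a1 (-0.98) and of Col9a2 in TRP-1MV (-0.92) ended.

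Col7a1 had the highest ratio of the 27 genes in the MV left tumor and in TRP-1MV against CTX. It encodes the anchoring fibril collagen that ties the epidermal basement membrane to the dermis, and lies at mm10 chromosome 9, 108953586 to 108984875. It stood at 7.25 CPM in the MV left tumor, 6.71 in TRP-1MV, 1.06 in the remote tumor and 1.30 in CTX. It was 5.56-fold higher in the MV left tumor than in CTX, a log2 ratio of 2.48 [1.83, 3.17], and stood at 2.36 [1.72, 3.05] in TRP-1MV. Of 8 keratinocyte markers none passed the minimum, and their summed level was 0.888 CPM in the MV left tumor, 1.30 in TRP-1MV, 0.151 in the remote tumor and 0.0521 in CTX. Col8a1, a short-chain network collagen of vessel walls and the cornea, had 12, 17, 7 and 15 reads and was not called against CTX. Col6a1, Col6a2 and Col6a3, the chains of the pericellular collagen VI, were between 1.76 and 2.92 CPM in every library. None of the 3 was called, with log2 ratios against CTX from -0.05 to 0.03 in the MV left tumor.

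The 250 bases before the RefSeq start of 4 of the called genes follow here (RefSeq, GRCm38.p6), because Col5a3 and Col15a1 had the 2 largest decreases among collagen genes with at least 100 reads in every library, and Col7a1 and Col27a1 were among those that rose. They are written 5′ to 3′ on the strand of the gene. Capitals mark the GC box GGGCGG, the CCAAT box CCAAT and the E-box CANNTG, each searched on both strands.
Col5a3, chr9:20815068-20815317, minus strand: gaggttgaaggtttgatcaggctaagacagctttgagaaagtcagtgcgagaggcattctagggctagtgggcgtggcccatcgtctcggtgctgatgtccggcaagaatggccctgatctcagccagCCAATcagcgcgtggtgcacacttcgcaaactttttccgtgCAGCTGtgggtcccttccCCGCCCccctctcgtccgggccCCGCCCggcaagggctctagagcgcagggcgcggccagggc
Col15a1, chr4:47207762-47208011, plus strand: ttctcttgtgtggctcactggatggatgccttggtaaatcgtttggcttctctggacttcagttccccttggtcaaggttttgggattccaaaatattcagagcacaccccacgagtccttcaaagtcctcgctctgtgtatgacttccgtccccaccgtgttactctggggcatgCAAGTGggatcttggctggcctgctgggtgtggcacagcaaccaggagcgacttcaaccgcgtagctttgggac
Col7a1, chr9:108953336-108953585, plus strand: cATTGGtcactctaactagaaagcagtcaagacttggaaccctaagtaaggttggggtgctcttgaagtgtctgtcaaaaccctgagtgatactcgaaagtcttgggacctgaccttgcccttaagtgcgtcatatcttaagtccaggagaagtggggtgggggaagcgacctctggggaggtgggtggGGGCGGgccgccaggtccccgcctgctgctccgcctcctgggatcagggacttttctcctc
Col27a1, chr4:63215162-63215411, plus strand: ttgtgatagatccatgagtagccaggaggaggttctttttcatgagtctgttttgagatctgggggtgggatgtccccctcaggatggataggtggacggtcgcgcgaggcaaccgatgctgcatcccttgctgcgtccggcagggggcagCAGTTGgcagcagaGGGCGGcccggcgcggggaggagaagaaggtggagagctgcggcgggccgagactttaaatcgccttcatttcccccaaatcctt
The RefSeq start used for Col27a1 lies inside the GENCODE span given above for that gene, and so does its window. Windows with an entry were found for 21 of the 27 genes. The Col5a3 window held 2 GC boxes, 1 CCAAT box and 1 E-box, and that of Col15a1 held 1 E-box and neither of the others. Col7a1 had 1 GC box and 1 CCAAT box, and Col27a1 had 1 GC box and 1 E-box. Over 32851 promoter windows of the same length, the GC box was present in 32.7%, the CCAAT box in 33.9% and the E-box in 66.2%. A match describes these letters and is not evidence of a bound site.

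Summed over a class, the fibrillar log2 ratio of the MV left tumor against CTX was near 0 with TMM scaling and was 0.34 with housekeeping scaling, while collagen IV was lower. The 11 fibrillar genes together had 138.2 CPM in the MV left tumor, 142.1 in TRP-1MV, 137.2 in the remote tumor and 141.2 in CTX. Their log2 ratio in the MV left tumor against CTX was -0.03 [-0.12, 0.06]. This sum held the fall of Col5a3 and the higher genes together, and without Col5a3 it was 0.43, while without Col5a1 it was -0.18. The 6 collagen IV genes together had 61.0, 60.7, 126.6 and 132.2 CPM, with log2 ratios of -1.12 [-1.23, -1.002] and -1.12 [-1.23, -1.02] against CTX in the MV left tumor and TRP-1MV. Housekeeping scaling put both at -0.74. The 2 multiplexins summed to 15.3, 15.3, 44.7 and 42.2 CPM, and the 9 FACIT genes to 46.5, 45.6, 79.9 and 82.5 CPM. The network and anchoring class, mostly Col7a1, summed to 9.25, 8.69, 1.86 and 2.19 CPM. The 6 collagen VI genes summed to 8.44, 6.40, 6.58 and 8.40 CPM.

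**Figure D4:**
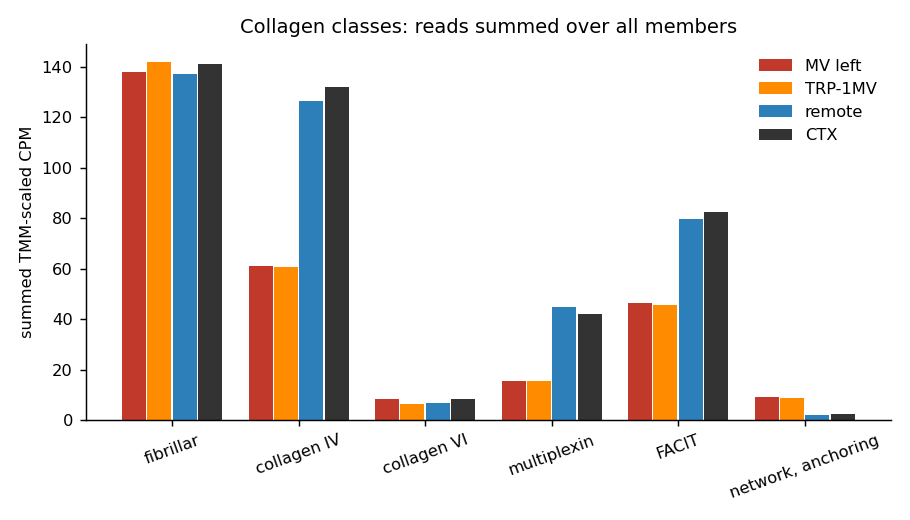
Summed TMM-scaled CPM of 6 collagen classes (bars start at 0), 1 bar per library, with no error bars since each group had 1 library. The fibrillar bars lie between 137.2 and 142.1 CPM in all 4 libraries, and the collagen IV bars at 61.0 and 60.7 against 126.6 and 132.2 CPM.

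The balance between classes can be read within each library, without any scaling. Fibrillar reads were 2.27 [2.09, 2.46] times the collagen IV reads in the MV left tumor, 2.34 [2.17, 2.53] in TRP-1MV, 1.08 [1.03, 1.14] in the remote tumor and 1.07 [1.01, 1.13] in CTX. Corrected for mRNA length the values were 2.28, 2.35, 1.12 and 1.12. The intervals of the MV left tumor and TRP-1MV do not overlap those of the remote tumor and CTX. Fibrillar genes took 49.3%, 50.6%, 34.5% and 34.5% of all collagen reads, and collagen IV 21.7%, 21.6%, 31.9% and 32.3%. Without Col5a3 the fibrillar to collagen IV ratio was 2.11 in the MV left tumor, 2.19 in TRP-1MV, 0.725 in the remote tumor and 0.724 in CTX.

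Between the remote tumor and CTX no collagen gene was called, beside 0.704% of all genes (0.457% higher and 0.247% lower). The log2 ratios of the 27 genes ran from -1.15 [-2.69, 0.23] for Col8a1, on 7 and 15 reads, to 0.49 [-0.12, 1.12] for Col18a1. Col3a1 at -0.38 [-0.68, -0.09], Col11a2 at -0.61 [-1.09, -0.13] and Col6a2 at -0.71 [-1.36, -0.07] excluded equality but stayed under 2-fold. Between TRP-1MV and the MV left tumor no collagen gene was called either, beside 0.779% of all genes (0.562% higher and 0.217% lower). The ratios ran from -0.84 for Col14a1 to 0.75 for Col9a2, and of the 27 intervals 1 excluded equality, that of Col4a1 at 0.25 [0.03, 0.47]. Without replicates, these values do not show that the tumors were alike.

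Against the remote tumor, 6 collagen genes were higher and 8 lower in the MV left tumor, beside 18.6% and 11.7% of all genes, 30.3% together. In TRP-1MV against the remote tumor 7 were higher and 6 lower, beside 18.8% and 12.1%, or 31% together. The added higher gene was Col8a1, at 1.59 [0.24, 3.10] on 17 and 7 reads, and Col14a1 was lower at -1.78 there, on 4 and 17 reads, but not in the MV left tumor, at -0.94. Col4a1, Col20a1 and Col9a2, called lower in the MV left tumor, stood at -0.95, -0.88 and -0.75 in TRP-1MV and were not called there. The MV left tumor against the remote tumor and TRP-1MV against CTX share no library, so their values can be set side by side. All 6 genes called higher in one were called higher in the other, and 7 of the 8 called lower in each were called lower in both. Over all 13357 genes, 89.3% and 89.6% of the higher genes and 80.5% and 80.9% of the lower genes of these comparisons were shared. The log2 ratio of Col7a1 was 2.78 in the former and 2.36 in the latter, that of Col15a1 -2.50 and -2.41, and that of Col5a3 -2.26 and -2.33. Of the 27 genes, 25 (92.6%) had the same sign, beside 91.05% of all genes. With housekeeping scaling the split against the remote tumor was 8 higher and 3 lower in the MV left tumor, and 8 higher and 4 lower in TRP-1MV.

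The other 17 collagen genes stayed under the minimum and had 0 to 19 reads in any library. They were Col11a1, Col24a1, Col4a3, Col4a6, Col6a4, Col6a5, Col6a6, Col19a1, Col22a1, Col8a2, Col10a1, Col13a1, Col17a1, Col23a1, Col25a1, Col26a1 and Col28a1. Of these, 9 never exceeded 3 reads, and Col6a4 had 0 in every library. Just outside the minimum were Col23a1 with a mean of 9.75 reads and Col10a1 with 6.75, and just inside it Col8a1 with 12.75 and Col14a1 with 13.5. Col23a1, a transmembrane collagen, had 12, 19, 4 and 4 reads, and Col10a1, the collagen of growth plate cartilage, 9, 13, 3 and 2. A count of 0 allows up to 3 reads, or 0.222 CPM in the MV left tumor, 0.186 in TRP-1MV, 0.151 in the remote tumor and 0.156 in CTX.

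Genes that modify and fold collagen chains were called in 1 direction in the MV left tumor. Of 17 such genes past the minimum 6 were lower and none higher in the MV left tumor against CTX, with a median of -0.64. Over all genes, 11.1% were lower and 18.1% higher in that comparison. In TRP-1MV 6 were lower and Tmem38b was higher at 1.23, beside 11.7% lower and 18.5% higher over all genes. These all-gene shares are those with TMM scaling. Serpinh1, the collagen chaperone HSP47, stood at 258.0 CPM in the MV left tumor, 242.8 in TRP-1MV, 1211 in the remote tumor and 1172 in CTX. Its log2 ratio in the MV left tumor was -2.18 [-2.24, -2.13]. The other 5 were the lysyl hydroxylase Plod1 at -1.38, Fkbp10 at -1.31, Crtap at -1.29, and the prolyl hydroxylase family genes P3h2 at -1.26 and P3h3 at -1.17. The highest in the MV left tumor were Tmem38b at 0.96, P4ha2 at 0.11, Mia3 at 0.09 and Plod3 at 0.04. With housekeeping scaling 2 genes were lower and 1 higher in this list in the MV left tumor.

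Genes that cleave procollagen and cross-link fibrils split, with 2 of 8 higher and 3 lower in both libraries against CTX. TRP-1MV had 18.5% of all genes higher and 11.7% lower against CTX. For the MV left tumor these all-gene shares were 18.1% and 11.1%. Lox, a lysyl oxidase that cross-links collagen, stood at 20.6 CPM in the MV left tumor, 29.3 in TRP-1MV, 1.06 in the remote tumor and 0.678 in CTX. It was 30.3-fold higher in the MV left tumor than in CTX, a log2 ratio of 4.92 [4.13, 5.85], with 13 reads in CTX. Its relative Loxl4 was higher at 3.38, while Loxl3 was lower at -1.53, as were the procollagen C-proteinase enhancer Pcolce at -2.15 and the N-proteinase Adamts14 at -1.13. The C-proteinase gene Bmp1 was at 0.94, Loxl1 at 0.92 and Loxl2 at -0.50, none of them called. With housekeeping scaling this list had 3 higher and 2 lower in the MV left tumor.

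Of 12 laminin and other basement membrane genes, 3 were higher and 5 lower in the MV left tumor, with the same counts in TRP-1MV. Over all genes, 18.1% were higher and 11.1% lower in the MV left tumor against CTX, and 18.5% and 11.7% in TRP-1MV. Hspg2, the core protein of perlecan, was lower at -1.59, with the laminin chain gene Lama4 at -1.46, the collagen-binding Sparc at -1.43 and the linker Nid1 at -1.31. The laminin chain gene Lama5 at 1.60 and Nid2 at 1.37 were among the higher. Lamc3, at 0.72, was not called. Thus collagen IV was not alone among basement membrane genes in being lower, and the list did not move as one. With housekeeping scaling 4 were higher and 3 lower in the MV left tumor. Of 13 genes of fibril-associated matrix, 4 were higher (Thbs1 5.85, Tgfbi 3.97, Vcan 2.83, Ccn2 2.13) and 2 lower (Postn -1.90, Sparc -1.43). The counts of this list are for the MV left tumor, beside the same 18.1% and 11.1% of all genes. The other ends of that list that were not called were Tnc at -0.18 and Bgn at -0.25. No gene of these 4 lists was called in the remote tumor against CTX, beside 0.704% of all genes.

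**Figure D5:**
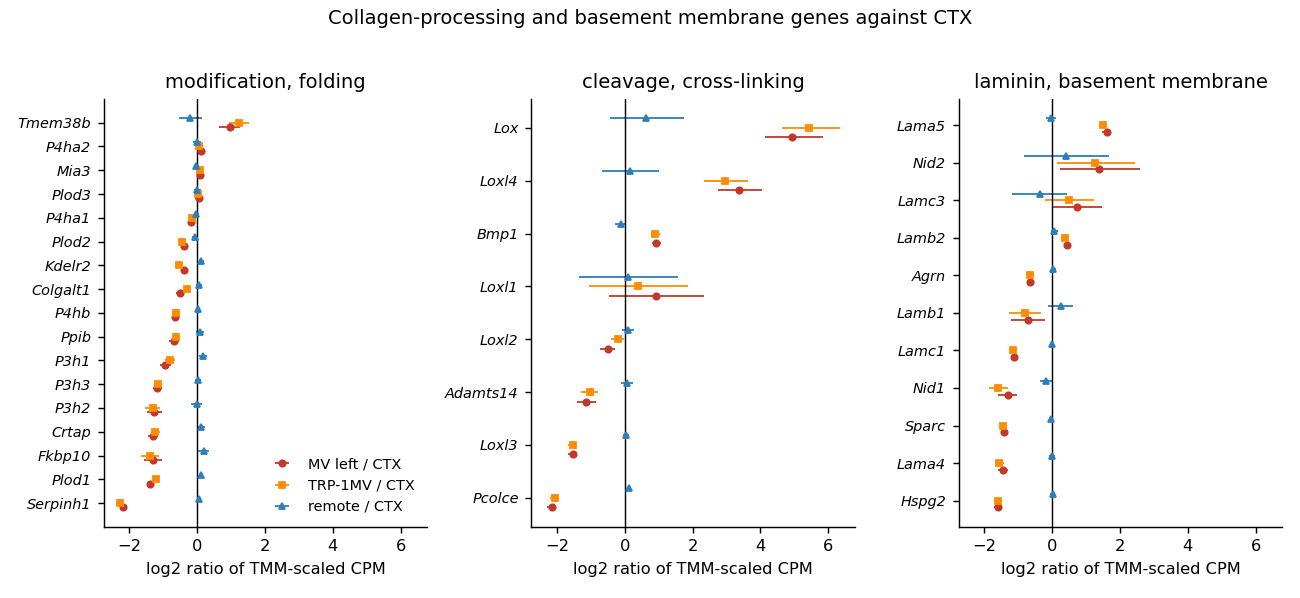
Log2 ratio of TMM-scaled CPM against CTX with 95% counting intervals for genes of collagen modification and folding, of cleavage and cross-linking, and of laminin and other basement membrane components, with 1 symbol for each of the MV left tumor, TRP-1MV and the remote tumor (1 member of the last list is not drawn). For the MV left tumor, Serpinh1 and Pcolce lie lowest in their panels at -2.18 and -2.15, and Lox highest at 4.92. For TRP-1MV, Serpinh1 lies at -2.27, Pcolce at -2.07 and Lox at 5.43. The remote tumor stays near 0 except for genes with few reads.

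Of 9 collagen-degrading enzymes and their inhibitors, 4 were higher in the MV left tumor (Mmp8 11.42, Mmp13 5.34, Mmp9 4.80, Ctsk 1.27) and 1 lower (Timp2 -1.82). Over all genes, 18.1% were higher and 11.1% lower there. Mmp8, a neutrophil collagenase, had 1 read in CTX, and its interval was [8.94, 16.72]. Those at the lower end that were not called were Mmp14 at -0.92, Timp1 at -0.56 and Timp3 at 0.32. In TRP-1MV Mmp2 was called higher as well, at 1.41. Of 8 collagen receptor genes, Lair1 was higher at 2.03, an inhibitory receptor of leukocytes, and Ddr2, a collagen-binding kinase, was lower at -1.18. Mrc2 at 0.83, Itga2 at 0.79, Itga10 at 0.67, Itgb1 at -0.32, Ddr1 at -0.45 and Itga1 at -0.66 were not called. In TRP-1MV, Mrc2 at 1.02 and Itga2 at 1.78 were higher too. None of these genes was called in the remote tumor against CTX, beside 0.704% of all genes.

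Markers of the cell types in the tissue differed with the same libraries, and their part in the collagen values was not tested. All 8 melanocyte markers were lower in the MV left tumor and in TRP-1MV, with a median of -2.07 and -2.21, and Mc1r was the lowest at -2.45 in the MV left tumor. All 8 T cell markers were higher, with Cd28 at 7.50, and 7 of 9 macrophage markers were higher, with Itgam at 6.41. The summed T cell markers stood at 235.7, 237.4, 8.89 and 9.23 CPM, and the macrophage markers at 935.5, 1379, 81.1 and 65.8 CPM. Of 8 fibroblast markers past the minimum, Thy1, which T cells also express, was higher at 5.52, and Fbln1 at -2.61 and Postn at -1.90 were lower. That list holds Col1a1 and Col1a2, and all 13 of its genes summed to 234.6, 237.4, 382.5 and 352.0 CPM. Fbln1 and Thy1 made up much of these sums and moved in opposite directions. In the same order of libraries, Fbln1 stood at 44.4, 41.6, 305.8 and 271.1 CPM, and Thy1 at 119.9, 121.6, 2.76 and 2.61 CPM. In the fibroblast list Dcn had 19, 30, 23 and 18 reads, Fap had 1, 1, 2 and 2, and Twist2 and Clec3b had 0 or 1. Pdgfra, with 62, 72, 56 and 44 reads, stood just short of the limit for a call. Its log2 ratios against CTX were 0.9997 [0.42, 1.59] in the MV left tumor and 0.96 [0.40, 1.54] in TRP-1MV. Pdpn was not called either, at -0.04 in the MV left tumor and 0.16 in TRP-1MV. Of 9 endothelial markers Kdr at 1.96 and Pecam1 at 1.75 were higher and Egfl7 at -1.56 was lower, with sums of 41.6, 40.1, 42.6 and 44.0 CPM. These near-equal sums hold opposite moves. Egfl7 made up much of them in the remote tumor and CTX, at 27.0 and 26.9 CPM, against 9.10 in the MV left tumor and 7.39 in TRP-1MV. Pecam1 stood at 10.7 CPM in the MV left tumor, 11.1 in TRP-1MV, 3.27 in the remote tumor and 3.18 in CTX. Of 8 mural cell markers Notch3 at 3.53, Myh11 at 2.58 and Tagln at 1.30 were higher, and Cspg4 at -2.11 and Des at -1.49 were lower, with sums of 60.0, 54.1, 57.1 and 57.7 CPM. The mural sums hold opposite moves too. In the same order, Notch3 stood at 26.0, 22.2, 2.46 and 2.24 CPM, and Des at 9.18, 9.38, 25.8 and 25.8 CPM.

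The 4 Schwann cell markers past the minimum included Egr2, higher at 3.80, and all 6 summed to 80.4 CPM in the MV left tumor, 97.2 in TRP-1MV, 133.1 in the remote tumor and 127.2 in CTX. Skeletal muscle markers summed to 16.6, 16.4, 13.7 and 15.4 CPM, with Actn3 higher at 1.16 and Myh1 lower at -1.16 in the MV left tumor. Adipocyte markers summed to 4.14, 3.79, 1.51 and 1.88 CPM, with Fabp4 at 0.83, which was not called. In the remote tumor against CTX, the macrophage markers Adgre1 at 1.09 and Cd14 at 1.61 were called higher and Myh1 at -1.10 lower. The non-coding or repeat-rich genes Rn45s, Lars2, Rpph1 and Rmrp took 1.64% of reads in the MV left tumor, 1.62% in TRP-1MV, 0.164% in the remote tumor and 0.141% in CTX. Scaling without these 4 left every collagen call as it was.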

How the data were processed

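RNA-seq was analysed in 4 mouse tumor libraries, 1 per group. The deposited tables give unnormalized whole-number counts for each gene symbol. HISAT2, featureCounts and mm10 are named, with no version, in the submitters' processing notes. The annotation used for counting is not given in the sources used here, and neither are strand handling or multi-mapping reads. Groups came from the sample titles and treatment labels.

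Counts were scaled by TMM factors over the 4 libraries (edgeR 4.0.16, R 4.3.3), and all 6 pairs of libraries were compared. Ratios and their 95% exact conditional binomial (Clopper-Pearson) intervals were computed with Python 3.11.15, scipy 1.17.1, numpy 2.4.6 and pandas 2.3.3, and figures were drawn with matplotlib 3.10.9. A call needed a ratio of 2 or more, in either direction, and an interval without 1. A count of 0 was set to a floor of 3, and no ratio was given where both counts were 3 or fewer. The script was tested on simulated data. Every collagen gene with a mean count of at least 10 is described, and from each of 18 other lists up to 4 genes with the highest and up to 4 with the lowest ratio in the MV left tumor against CTX, plus genes called in the remote tumor against CTX. A few further list members, such as P3h2, P3h3 and Mmp2, were named after their values were seen. Some items that the rule selects are not reported here. The members, classes and lists were chosen with earlier results of these data known.

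Positions, transcript lengths and Gly-X-Y runs (the codons GGN NNN NNN repeated at least 3 times) came from GENCODE M21, in which all 44 symbols were found, with 1 transcript per gene, that with the longest coding sequence. Upstream sequences came from RefSeq. Alternatives were total counts, DESeq2 1.42.0 size factors, housekeeping scaling, upper-quartile factors, TMM without Rn45s, Lars2, Rpph1 and Rmrp, other count minimums, a ratio of at least 4, and sums without single members. The sums without Col5a3 were added after the data were seen.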

Additional observations from a re-analysis of the deposited data

How the results depend on the processing

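No paired analysis was possible because there was only 1 library in each group. Of 190 values recomputed under alternatives, 147 stayed within the limits set for a change, 43 moved and none counted as reversed, though the fibrillar sum, which was not called, changed sign under some of them. DESeq2 size factors, upper-quartile factors, TMM without the 4 named genes and a minimum mean count of 50 moved none of the counts or sums past those limits. Depth limits the genes with few reads most, since Col14a1, Col9a2 and Col8a1 have fewer than 10 reads in a library. The values below are for the MV left tumor against CTX, TRP-1MV against CTX, the MV left tumor against the remote tumor and TRP-1MV against the remote tumor, in this order. The cause of each change was not tested unless the alternative itself sets it.

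With a ratio of at least 4, the collagen genes called higher numbered 1, 1, 2 and 2, and those called lower 3, 4, 3 and 3. With no minimum count, 11 were higher in TRP-1MV against the remote tumor, since genes with few reads were added. With housekeeping scaling, 5 were lower in the MV left tumor against CTX and 3 against the remote tumor, and with total counts 5 against the remote tumor. The summed fibrillar log2 ratios were 0.21, 0.25, 0.27 and 0.30 with total counts, 0.34, 0.39, 0.42 and 0.47 with housekeeping scaling, -0.18, -0.14, -0.10 and -0.062 without Col5a1, and 0.43, 0.47, 0.49 and 0.53 without Col5a3. Those of collagen IV were -0.87, -0.88, -0.80 and -0.81 with total counts, and -0.74, -0.74, -0.64 and -0.64 with housekeeping scaling. Without Col4a1 the collagen IV sum was -0.998 in the MV left tumor against CTX and -0.18 in TRP-1MV against the MV left tumor. Without Col5a1 and Col4a1, fibrillar reads were 2.63 times collagen IV reads in TRP-1MV, 1.24 in the remote tumor and 1.29 in CTX, and without Col5a3 they were 0.725 times in the remote tumor and 0.724 in CTX.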

Other observations

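Some collagen genes under the minimum count had ratios past the limits, and they are given here as values on few reads. Col10a1 counted 9 in the MV left tumor and 13 in TRP-1MV against 2 in CTX, with log2 ratios of 2.67 [0.40, 5.92] and 2.95 [0.81, 6.14]. Col23a1 had 12 and 19 reads against 4, with log2 ratios of 2.09 [0.37, 4.18] and 2.50 [0.91, 4.51]. Col19a1, a FACIT collagen, had 11 reads in TRP-1MV against 2 in CTX, a log2 ratio of 2.71 [0.52, 5.93]. Col17a1, a transmembrane collagen of the hemidesmosome, had 11 reads in TRP-1MV against 2 in the remote tumor, a log2 ratio of 2.76 [0.57, 5.98]. These genes were singled out after their values were seen.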
